A study of Zea mays with 6 samples.

Results

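The genes described here are the nuclear genes of maize (Zea mays) for photosystem subunits, their assembly factors and the electron carriers of photosynthesis. They were taken from the nuclear rows of the deposited table whose name or description holds "photosystem", "oxygen-evolving", "plastocyanin", "cytochrome b6", "ferredoxin" or "proton gradient regulation". Rows whose name or description marks antenna proteins, nitrite or sulfite reductases, glutamate synthases or thioredoxin-related genes were left out. This gave 87 of 45953 genes, on 10 chromosomes. No count was recorded for 6 of them in any library, and the other 81 all passed the filter on low counts and were tested.

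The photosynthetic electron transport chain sits in the thylakoid membrane of the chloroplast. Photosystem II, with its oxygen-evolving complex, takes electrons from water and passes them through plastoquinone to the cytochrome b6f complex, plastocyanin carries them on to photosystem I, and ferredoxin and ferredoxin-NADP reductase pass them to NADP. The core subunits that bind most of the cofactors are encoded in the chloroplast genome, while the genes described here are in the nucleus and their proteins are imported. In the C4 leaf of maize, mesophyll cells fix carbon first and bundle sheath cells hold Rubisco, and bundle sheath chloroplasts are poor in photosystem II.

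Leaves of 2 groups of plants were sequenced, with 3 libraries in each. LW plants were under drought with water supplied continuously by negative pressure irrigation, and CW plants grew in moist soil under drip irrigation, so irrigation method and soil water differed together. Estimated counts summed to 62327457 to 84084375 per library in LW and to 42927751 to 64067543 in CW. The labels do not say whether the replicates came from separate plants. The p-values therefore reflect the spread among these 6 libraries, which may be technical.

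Markers of leaf cells were present in every library. Pyruvate orthophosphate dikinase1, a mesophyll enzyme of the C4 cycle, had 2439, 4342 and 2197 counts per 1000000 (CPM, on library sizes scaled by TMM) in LW, against 4003, 3919 and 6399.6 CPM in CW. The root silicon transporter had no count in any library. Of the 6 mesophyll markers edgeR called none, with 1 higher in LW at an unadjusted p under 0.05 and 1 higher by DESeq2, and their summed FPKM (fragments per kilobase of transcript and per 1000000 fragments) ran from 699.7 to 2740.3 in LW, against 1128 to 1755 in CW. Of the 5 bundle sheath markers edgeR called 3 lower in LW, the small subunits of Rubisco and a phosphoribulokinase gene. Phosphoenolpyruvate carboxykinase1 was not called (log2 fold change -1.07, adjusted p = 0.161). NADP-malic enzyme was planned as a bundle sheath marker but is not in the list used. The summed FPKM of the 5 ran from 2109 to 3009 in LW, against 6679 to 23458 in CW. LW replicate 2 stood apart in mesophyll markers: phosphoenolpyruvate carboxylase1 had 555, 3589.7 and 925 CPM in LW, against 1014, 1485 and 1876 CPM in CW. CW replicate 3 stood apart in the small subunit1 of Rubisco, which had 892, 602 and 1362 CPM in LW, against 13037, 16695 and 3503 CPM in CW. Among senescence markers edgeR called 3 of 17 tested lower in LW and none higher. At an unadjusted p under 0.05 there were 6 lower and 2 higher, and DESeq2, over all 29 listed, called 6 lower and 1 higher. The 3 called were pheophorbide a oxygenase (log2 fold change -1.32), senescence enhanced2b (-1.19) and the DIN1 gene Zm00001d054093 (-1.73). Stay-green 1 (Zm00001d006211), not called in edgeR, went the other way, with 9.62, 5.76 and 6.02 CPM in LW, against 1.39, 0.491 and 1.75 CPM in CW (adjusted p = 0.0544). The other stay-green genes, Zm00001d002951 and Zm00001d021288, had log2 fold changes of -2.01 and 0.02 and were not called. The summed FPKM of the senescence markers ran from 792 to 1036 in LW, against 901 to 1043 in CW. Among markers of dividing cells edgeR called 1 of 33 tested lower in LW and none higher. At an unadjusted p under 0.05 there were 5 lower and 2 higher, and DESeq2, over all 61 listed, called 4 lower and 2 higher. All LW libraries lay below all CW libraries in 7 of the 33 and above in 9, beside 14.9% and 19.7% of all tested genes. Their summed FPKM ran from 191 to 277 in LW, against 229.6 to 264 in CW. The part of cell make-up in the results that follow was not tested, and in whole leaves fewer cells of a type and less RNA per cell cannot be told apart.

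Most of these genes were at lower levels in LW leaves. Of the 81 tested members 38 fell in LW (46.9%) and 2 rose, at an adjusted p under 0.05 (quasi-likelihood test of edgeR, Benjamini-Hochberg adjusted). Over all 24704 tested genes the same rule called 2.40% lower, 2.84% higher and 5.23% in either direction. The falls lay between 2.80-fold and 20.9-fold, and their median was 5.27-fold. The median log2 fold change (LW over CW) was -1.79 over the 81 members, beside 0.06 over all tested genes. All LW libraries lay below all CW libraries in 52 members and above them in 5, beside 14.9% and 19.7% of all tested genes. The log2 fold change was below 0 in 70 of the 81, beside 47.4% of all tested genes.

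**Figure D1:**
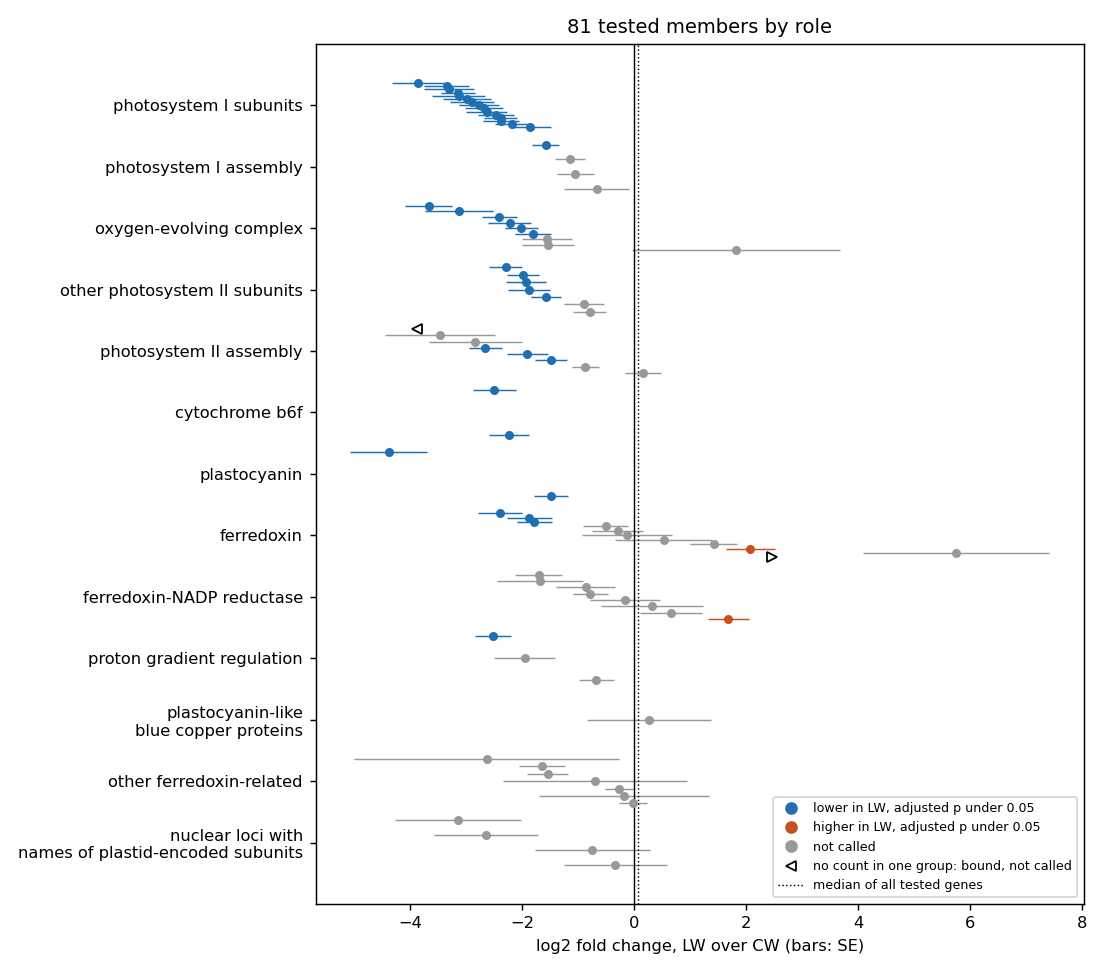
Each point is 1 of the 81 tested members, placed on the horizontal axis by its log2 fold change (LW over CW, bars are the SE) and on the vertical axis by its role. Blue points passed the test as lower in LW (38), orange points as higher (2), grey points did not pass, and open triangles are bounds for the 2 members with no count in 1 group. All 15 photosystem I subunits lie left of 0 in blue, whereas ferredoxins and ferredoxin-NADP reductases lie on both sides.

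The calls depended on the LW libraries and on CW replicates 1 and 2. With any LW library left out, or CW replicate 2, edgeR called 0 of the 81 members and at most 3 genes in the whole table. In those fits 55 to 60 members stayed under 0.05 before adjustment, and the matching shares of all tested genes are not given here. With all libraries 60 members were under 0.05 before adjustment, beside 24.7% of all tested genes. Without CW replicate 1 it called 14 members lower, beside 0.336% of all tested genes. Without CW replicate 3 it called 45 members lower and 3 higher, beside 4.64% and 5.88% of all tested genes, shares that are themselves higher than with all libraries. The 38 genes called lower with all libraries were among those 45. DESeq2, on all libraries, called 53 members lower and 5 higher, beside 7.61% and 9.48% of the genes it tested. The 38 lower and the 2 higher members kept their direction in each of the 12 other fits that were run. The groups did not overlap in any of these members and the fits share the same libraries, so the sign could hardly turn and its stability adds no support.

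Summed over all members, per length, the level was 23667, 22588 and 20112 FPKM in LW, against 78205, 84874 and 79583 FPKM in CW. The groups did not overlap, and the mean was 3.66-fold lower in LW. An exact two-sided permutation test of 3 against 3 libraries cannot give a p under 0.1, so such sums and shares are given without a test. The fall was unequal between the roles. Photosystem I subunits fell most among the abundant roles, to 9875 ± 1908 FPKM in LW, against 52544 ± 2877 FPKM in CW (SD, n = 3 each), which is 5.32-fold. Their share of the members' summed FPKM was 44.4 ± 5.37% in LW and 65 ± 3.59% in CW. The oxygen-evolving complex was 3.28-fold lower in LW, plastocyanin 2.21-fold, ferredoxin 2.21-fold and the other photosystem II subunits 1.87-fold. The order of these roles depends on 1 abundant gene, photosystem II3. Without it the other photosystem II subunits were 2.60-fold lower in LW, and the oxygen-evolving complex, to which its annotation terms point, was 2.22-fold lower with it included, a comparison added after the data were seen. As grouped by name, the other photosystem II subunits held 20.4 ± 1.19% of the members' summed FPKM in LW and 10.4 ± 2.46% in CW, and without photosystem II3 they held 7.10 ± 1.27% in LW and 5.05 ± 0.776% in CW.

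**Figure D2:**
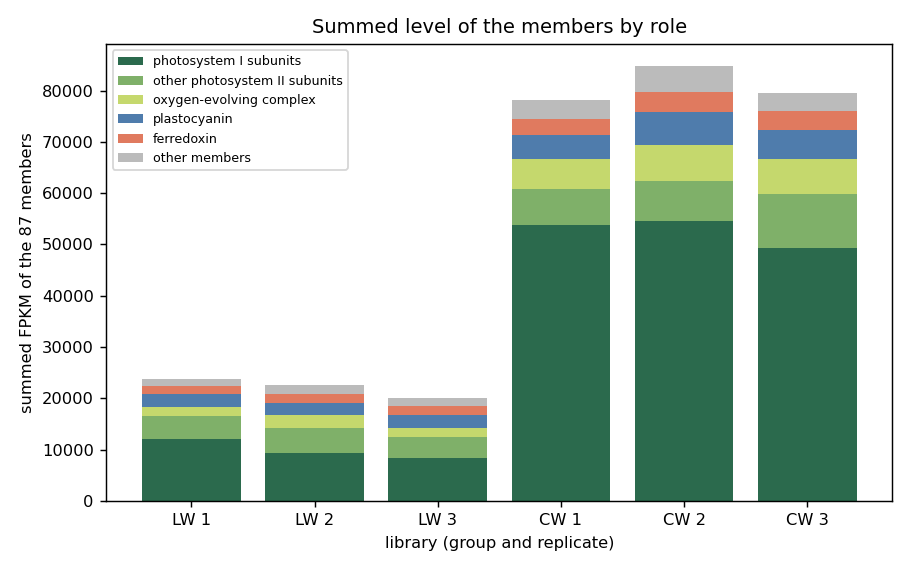
Bars give the summed FPKM of the 87 members in each library, LW libraries on the left and CW libraries on the right, divided by role. The LW bars reach 20112 to 23667 FPKM and the CW bars 78205 to 84874 FPKM, and the dark green part for photosystem I is the largest in every bar.

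The ratio of photosystem II subunits, oxygen-evolving complex and photosystem II3 included, to photosystem I subunits was 0.533, 0.780 and 0.716 in LW, against 0.237, 0.275 and 0.356 in CW. For the oxygen-evolving complex over photosystem I, without photosystem II3, it was 0.154, 0.263 and 0.217 in LW, against 0.110, 0.131 and 0.142 in CW. There LW replicate 1 and CW replicate 3 were close. For plastocyanin over photosystem I the ratio was 0.208, 0.257 and 0.316 in LW, against 0.0883, 0.115 and 0.114 in CW. All of these ratios were higher in every LW library than in every CW library. LW replicate 2, the library with the most phosphoenolpyruvate carboxylase1, had the highest ratio of photosystem II to photosystem I, and the part of cell make-up in this ratio was not tested.

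Photosystem II begins the chain. Of the 9 genes named for its oxygen-evolving complex, the lumenal proteins that stabilise the manganese cluster where water is split, 6 fell in LW and none rose, with a median log2 fold change of -2.02. The 33 kDa subunit Zm00001d036535, which binds closest to that cluster, was the most abundant of the 9 per length. It had 1242, 1250.4 and 1132 CPM in LW, against 3585, 4380.5 and 4734 CPM in CW. The libraries of each group were close to each other and the groups were far apart, with a log2 fold change of -1.81 ± 0.32 (SE, adjusted p = 0.032). The call was lost in limma with a pseudocount of 0.1 (adjusted p = 0.0553). Its second copy, Zm00001d014564, had 88.8, 154 and 114 CPM in LW, against 696, 705 and 493 CPM in CW, a log2 fold change of -2.41.

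Enhancer protein 2 (PsbP) and enhancer protein 3 (PsbQ) help the complex keep its calcium and chloride. Photosystem II oxygen evolving polypeptide1 (Zm00001d007857), an enhancer protein 2 gene, had 179, 269 and 195 CPM in LW, against 902, 1430.0 and 688 CPM in CW (log2 fold change -2.23, adjusted p = 0.0305). Polypeptide2 (Zm00001d018779) had 124, 329 and 130.2 CPM in LW, against 432, 551 and 718 CPM in CW. Its groups did not overlap, but LW replicate 2 stood far above the other LW libraries, and the gene did not pass the test (log2 fold change -1.54 ± 0.46, adjusted p = 0.0909).

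The largest change of the complex was in enhancer protein 3-1, Zm00001d006540. It had 79.2, 105 and 43.2 CPM in LW, against 755, 1101 and 1038 CPM in CW. Every CW library was far above every LW library, and the gene was 12.7-fold lower in LW (log2 fold change -3.67 ± 0.42, adjusted p = 0.0207). Oxygen evolving complex2 (Zm00001d021703), the main gene for the same protein, had 419.7, 422 and 312 CPM in LW, against 1538, 1636 and 1516 CPM in CW, which is 4.07-fold lower. The share of Zm00001d021703 in the summed FPKM of the 4 enhancer protein 3 genes was 81.1%, 78.2% and 81.3% in LW, against 64.3%, 56.8% and 59.4% in CW. A minor copy, Zm00001d050889, had 10.6, 7.37 and 12.3 CPM in LW, against 97.1, 141 and 26.2 CPM in CW, with CW replicate 3 well under the other CW libraries. Oxygen evolving complex23 (Zm00001d009772) was under 1 FPKM in every library and did not pass the test.

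The other photosystem II subunits are mostly small membrane proteins around the core. All 7 were lower in every LW library than in every CW library, and 5 passed the test. PsbY, a small subunit close to cytochrome b559, had the largest change of them. Its gene Zm00001d035135 had 34.1, 32.6 and 28.5 CPM in LW, against 151, 207 and 112 CPM in CW (log2 fold change -2.30 ± 0.29, adjusted p = 0.0207). The other PsbY gene, Zm00001d049650, had a log2 fold change of -1.99, and the PsbW genes Zm00001d043299 and Zm00001d010715 had -1.88 and -1.58. PsbW is a small subunit that helps hold photosystem II to its antenna. Photosystem II subunit29 (Zm00001d021763) had 826, 727 and 519.9 CPM in LW, against 1932, 2866 and 3099 CPM in CW. It fell by 1.93 on the log2 scale, and its annotation terms in the deposited table are those of a light-harvesting protein. Kept by its name, at 586 ± 122 FPKM in LW and 1757 ± 429 FPKM in CW (SD, n = 3 each), it is part of the photosystem II sums and ratios. Values without it are not given.

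Photosystem II3 and PsbS, members of this role, did not pass the test. Photosystem II3 (Zm00001d049387), whose annotation terms place it in the oxygen-evolving complex, was the most abundant photosystem II gene per length, at 2928 ± 64.0 FPKM in LW and 4336 ± 1449 FPKM in CW (SD, n = 3 each). It had 2152, 1819 and 1895 CPM in LW, against 3018, 3024 and 4931 CPM in CW. The groups did not overlap, but CW replicate 3 was far above the other CW libraries, and the log2 fold change was -0.90 ± 0.35 (adjusted p = 0.17). PsbS, which switches on the release of excess light energy as heat, had 336, 472 and 319 CPM in LW, against 606, 819 and 537 CPM in CW (Zm00001d042697, log2 fold change -0.80 ± 0.30, adjusted p = 0.16).

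**Figure D3:**
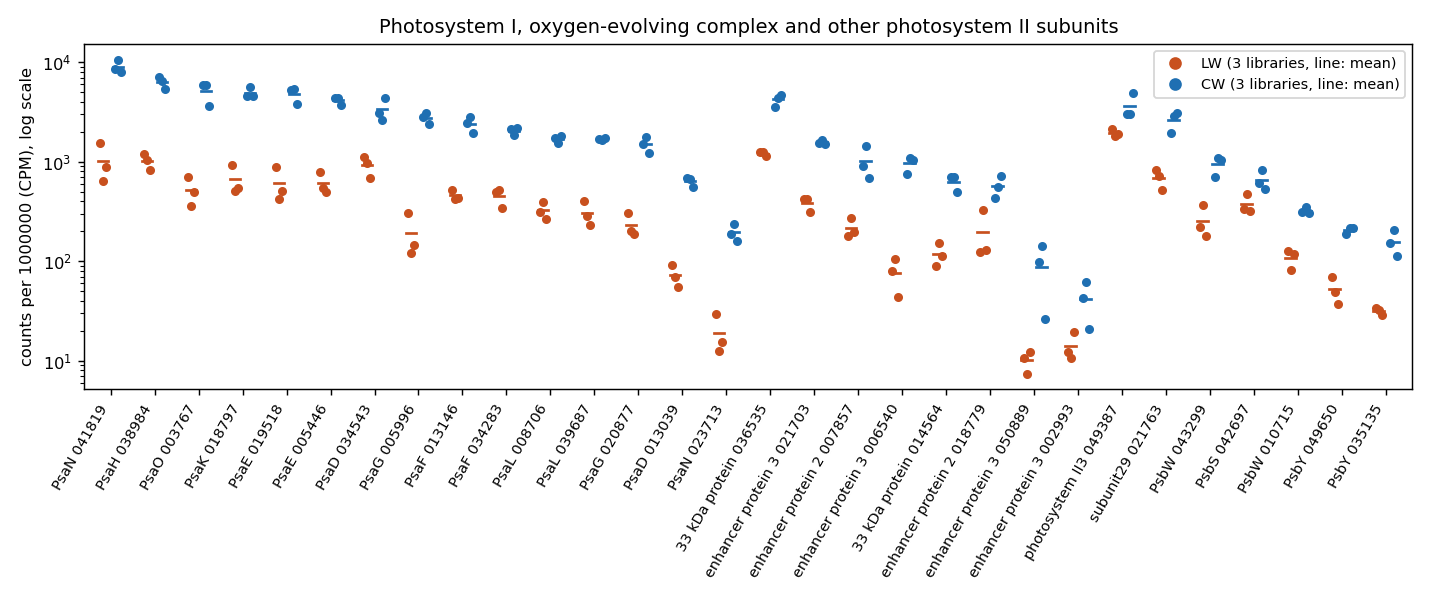
Points are the CPM of each library on a log axis and lines are group means, LW in orange left of CW in blue, for the photosystem I subunits, the oxygen-evolving complex and the other photosystem II subunits with a CW mean above 1 CPM. Numbers after a protein name are the last 6 digits of the gene identifier. LW points lie under all CW points in every gene shown, with a wide gap for photosystem I, while the groups nearly touch for the enhancer protein 3 gene Zm00001d002993 (highest LW library 19.5 CPM, lowest CW library 20.6 CPM) and lie close for photosystem II3, PsbS and the enhancer protein 2 gene Zm00001d018779.

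Photosystem II is built and repaired with the help of further proteins. Of 10 genes named for this, 8 were tested, 3 fell and none rose, while DESeq2 called 7 lower. Psb27 binds photosystem II while it is being assembled or repaired. Its gene Zm00001d047532 had 42.8, 29.2 and 44.2 CPM in LW, against 187, 268 and 281 CPM in CW. It was 6.33-fold lower in LW with no overlap of the groups (log2 fold change -2.66 ± 0.30, adjusted p = 0.0207). The second Psb27 gene, Zm00001d029049, had 47.8, 35.7 and 46.1 CPM in LW, against 85.2, 124 and 154 CPM in CW, which is 2.80-fold lower (adjusted p = 0.0389). Zm00001d047532 held 47.7%, 45.4% and 49.4% of the summed Psb27 FPKM in LW, against 69%, 68.8% and 64.9% in CW, so the genes were at like levels in LW, whereas Zm00001d047532 led in CW.

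A gene of the PsbP family, Zm00001d009928, had 18.0, 16.9 and 16.1 CPM in LW, against 58.1, 96.2 and 37.2 CPM in CW (log2 fold change -1.91, adjusted p = 0.0372). The other gene with the same name, Zm00001d003428, had 14.0, 12.5 and 13.8 CPM in LW, against 10.2, 16.8 and 9.43 CPM in CW, and its groups overlapped. Psb28, which joins assembling photosystem II, has 4 genes here, all on chromosome 3 between positions 154797976 and 155998139 of the deposited table, and reads may be split between copies this close. The 3 that were tested did not pass in edgeR, at adjusted p of 0.0609, 0.0813 and 0.089. Zm00001d042175 had 0.624, 4.66 and 1.77 CPM in LW, against 18.9, 53.1 and 6.49 CPM in CW. Zm00001d042172 had no count in LW and was at least 14.7-fold lower there, against a floor of 3 counts in each LW library, and Zm00001d042199 had no count at all.

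The cytochrome b6f complex links the photosystems, and its nuclear genes described here both fell. Subunit 7, a small membrane subunit (Zm00001d013191), had 46.2, 49.8 and 63.9 CPM in LW, against 294, 434 and 179 CPM in CW (log2 fold change -2.50 ± 0.38, adjusted p = 0.0253). The gene described as plastoquinol-plastocyanin reductase, the name of the enzyme activity of the whole complex (Zm00001d034179), had 120.1, 111 and 129 CPM in LW, against 585, 773 and 344 CPM in CW (log2 fold change -2.24 ± 0.35, adjusted p = 0.0275). LW libraries were close together in both genes and CW replicate 3 was the lowest CW library.

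Plastocyanin is the small copper protein that carries electrons from cytochrome b6f to photosystem I. Plastocyanin homolog1 (Zm00001d035859) gave at least 99.4% of plastocyanin FPKM in every library. It had 1241, 1044 and 1198 CPM in LW, against 2779.9, 3798 and 3202 CPM in CW. The gene was 2.81-fold lower in LW (log2 fold change -1.49 ± 0.31, adjusted p = 0.0442), beside 3.64-fold or more for each photosystem I subunit, a difference that was not tested. Its call was lost under total scaling and without a filter (adjusted p = 0.0553 and 0.055, edgeR) and in limma (adjusted p = 0.146 and 0.174 with a pseudocount of 1 and 0.1). Its level per length, 2504 ± 96.7 FPKM in LW and 5520.4 ± 748 FPKM in CW (SD, n = 3 each), was second among the members over all libraries, after photosystem I N subunit1. A second plastocyanin gene, Zm00001d045620, had 0.365, 0.569 and 1.42 CPM in LW, against 18.0, 22.9 and 8.67 CPM in CW, and had the largest fold of the members that fell, at 20.9-fold (adjusted p = 0.0269). All of its 468 bases overlap another gene on the opposite strand, Zm00001d045621, and the strand setting of the counting is not given in the sources used here, so its value is uncertain.

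Photosystem I takes electrons from plastocyanin and passes them to ferredoxin. All 15 of its nuclear subunit genes fell in LW and all LW libraries were below all CW libraries in each. Log2 fold changes ran from -3.86 to -1.86 with a median of -2.77, and adjusted p from 0.0192 to 0.041. All 15 passed under total scaling, with DESeq2, without a filter and without CW replicate 3, 14 passed in limma, 9 without CW replicate 1 and 0 without CW replicate 2 or any of the LW libraries, where each of the 15 was still under 0.05 before adjustment.

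On the lumenal side of photosystem I sit PsaF and PsaN, which help plastocyanin dock. Photosystem I N subunit1 (Zm00001d041819) had the highest mean FPKM of all members. It had 1555, 644 and 881 CPM in LW, against 8479, 10627 and 7988 CPM in CW. LW replicate 1 was the highest LW library and still far under every CW library, and the gene was 8.80-fold lower in LW (log2 fold change -3.14 ± 0.48, adjusted p = 0.0256). The minor PsaN gene Zm00001d023713 was 10.2-fold lower, with 29.5, 12.4 and 15.3 CPM in LW, against 186, 238 and 159.9 CPM in CW. The PsaF genes Zm00001d013146 and Zm00001d034283 were at like levels and were 5.22-fold and 4.53-fold lower.

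On the stromal side PsaD and PsaE form the place where ferredoxin docks. The main PsaD gene, Zm00001d034543, had 1117, 981 and 692 CPM in LW, against 3122, 2651 and 4369 CPM in CW. Its fall was the smallest of the 15, at 3.64-fold (log2 fold change -1.86 ± 0.37, adjusted p = 0.041). The minor PsaD gene, Zm00001d013039, had 91.9, 68.9 and 55.2 CPM in LW, against 691, 668 and 559 CPM in CW. It was 8.88-fold lower and had the smallest adjusted p of all members (log2 fold change -3.15 ± 0.31, adjusted p = 0.0192). Its share of PsaD FPKM was 6.49%, 5.59% and 6.30% in LW, against 15.7%, 17.5% and 9.74% in CW. Both PsaE genes were high, and Zm00001d019518 and Zm00001d005446 were 7.97-fold and 6.80-fold lower.

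PsaG and PsaK lie at the edge of the complex beside the antenna. PsaG had the largest fall of any photosystem I gene, in Zm00001d005996, with 306, 121 and 146 CPM in LW, against 2851, 3074 and 2383 CPM in CW. It was 14.5-fold lower (log2 fold change -3.86 ± 0.47, adjusted p = 0.0207). The other PsaG gene, Zm00001d020877, had 307, 199 and 189 CPM in LW, against 1499, 1759.7 and 1215 CPM in CW, which is 6.43-fold lower. Zm00001d005996 held 56.0%, 43.8% and 49.8% of PsaG FPKM in LW, against 70.9%, 69.1% and 71.5% in CW. PsaK (photosystem I reaction center6, Zm00001d018797) had 934, 508 and 548 CPM in LW, against 4575, 5679 and 4629 CPM in CW, which is 7.48-fold lower (adjusted p = 0.0221).

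PsaH, PsaL and PsaO form the side of photosystem I where the mobile antenna of photosystem II can bind. Photosystem I H subunit1 (Zm00001d038984) had 1191, 1038 and 826 CPM in LW, against 7189.9, 6471 and 5424 CPM in CW. It was 6.25-fold lower, with no overlap of the groups (log2 fold change -2.64 ± 0.36, adjusted p = 0.0221). PsaO (Zm00001d003767) had 707, 358 and 496 CPM in LW, against 5943, 5911 and 3641 CPM in CW, a fall of 9.93-fold. The PsaL genes Zm00001d008706 and Zm00001d039687 were 5.25-fold and 5.52-fold lower, and neither gene held a steady lead over the other across the libraries.

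**Figure D4:**
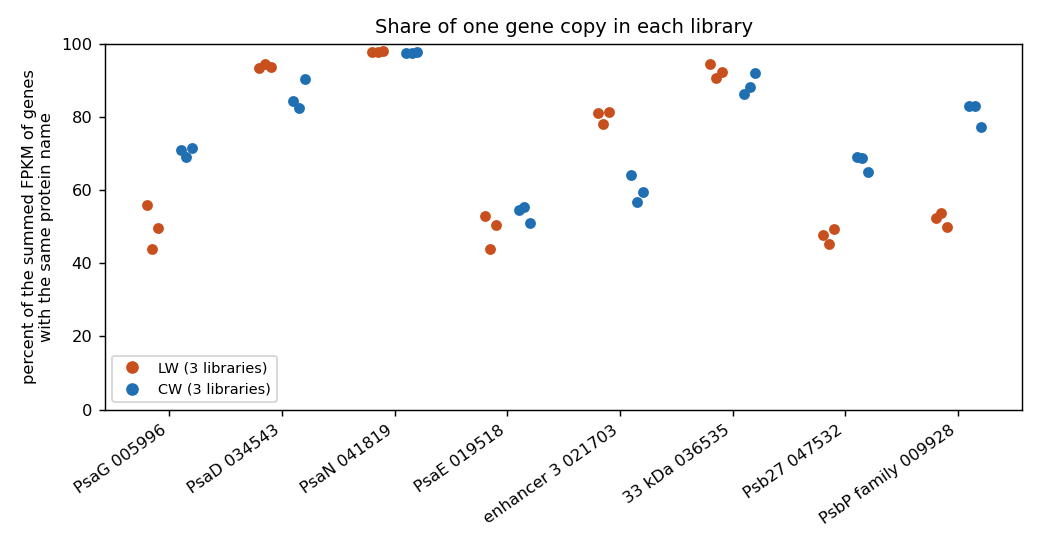
Points give, for each library, the percent of the summed FPKM of genes with the same protein name that 1 gene copy holds, LW in orange left of CW in blue. The groups do not overlap for the PsaG, PsaD, enhancer protein 3, Psb27 and PsbP family genes shown. They overlap for the PsaE and 33 kDa genes, and the PsaN gene is between 97.4% and 98.0% in all libraries.

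By name and annotation terms 4 genes were placed in photosystem I assembly, and edgeR called 1 of them lower in LW. PhotosystemI1 (Zm00001d036521), annotated to iron-sulfur cluster assembly, had 36.5, 43.2 and 42.7 CPM in LW, against 101, 119 and 146 CPM in CW (log2 fold change -1.58 ± 0.24, adjusted p = 0.0257). PhotosystemI2 (Zm00001d031738), the most abundant of the 4 per length, had 68.5, 77.9 and 88.3 CPM in LW, against 112, 237 and 139 CPM in CW, and did not pass (log2 fold change -1.06 ± 0.33, adjusted p = 0.101). Accumulation of photosystem one1 (Zm00001d002317) had a log2 fold change of -1.15 and an adjusted p of 0.0566. PhotosystemI3 (Zm00001d013295), which the table also describes as a nuclear pore protein, had overlapping groups.

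Ferredoxins are small iron-sulfur proteins that hand electrons from photosystem I to several enzymes, and their genes went both ways. Of 11 tested, 3 fell and 1 rose, while DESeq2 called 3 lower and 4 higher. The 3 that fell lie side by side on chromosome 6, between positions 1392078 and 1425431 of the deposited table. Ferredoxin2 (Zm00001d035003), the bundle sheath ferredoxin of maize, was the most abundant ferredoxin per length and had 291, 116 and 223 CPM in LW, against 951, 1317 and 1069.6 CPM in CW. It was 5.29-fold lower in LW (log2 fold change -2.40 ± 0.40, adjusted p = 0.0307). Ferredoxin5 (Zm00001d035002) had 94.0, 109 and 124 CPM in LW, against 351, 504 and 275 CPM in CW (log2 fold change -1.79 ± 0.31, adjusted p = 0.0313). Ferredoxin1 (Zm00001d035001), the mesophyll ferredoxin, had 35.5, 84.5 and 50.4 CPM in LW, against 145, 275 and 208 CPM in CW (log2 fold change -1.88 ± 0.40, adjusted p = 0.0456). Its call was lost under total scaling (adjusted p = 0.0734, edgeR) and in limma (adjusted p = 0.0526 and 0.0557 with a pseudocount of 1 and 0.1).

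The ratio of ferredoxin1 to ferredoxin2, per length, was 0.114, 0.678 and 0.211 in LW, against 0.142, 0.195 and 0.182 in CW. The groups overlapped, and LW replicate 2 was far above all other libraries. In that library ferredoxin2 was the lowest and ferredoxin1 the highest of the LW values, and it also had the most phosphoenolpyruvate carboxylase1.

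Ferredoxin-6 (Zm00001d038291) was the ferredoxin that rose. It had 12.5, 30.8 and 38.3 CPM in LW, against 7.83, 5.84 and 5.70 CPM in CW, which is 4.21-fold higher (log2 fold change 2.07 ± 0.44, adjusted p = 0.0451). Without CW replicate 3 it did not pass (adjusted p = 0.0616, edgeR). Ferredoxin3 (Zm00001d034760), known in maize as a root-type ferredoxin, had 178, 93.6 and 157 CPM in LW, against 39.1, 36.4 and 84.7 CPM in CW. All LW libraries were above all CW libraries, but LW replicate 2 and CW replicate 3 were close, and the gene did not pass in edgeR (log2 fold change 1.42 ± 0.42, adjusted p = 0.0909). It passed in DESeq2 (adjusted p = 0.017), in limma (0.0325 and 0.035 with a pseudocount of 1 and 0.1) and in edgeR without CW replicate 3 (0.0288). Per length it reached 311 ± 78.6 FPKM in LW, against 93.4 ± 50.5 FPKM in CW (SD, n = 3 each). Ferredoxin1 had 129.7 ± 66.0 FPKM in LW and 365 ± 106 FPKM in CW, so ferredoxin3 was the higher of the pair in LW and the lower in CW. Of the 7 root markers, which include ferredoxin3 and the root reductase, 3 had no count in any library, the silicon transporter among them. Their summed FPKM, mostly that of ferredoxin3, ran from 231 to 374 in LW, against 68 to 159 in CW.

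Both genes named as probable ferredoxin-4 were nearly silent in CW. Zm00001d010136 had 0.837, 3.08 and 7.13 CPM in LW, against 0, 0 and 0.189 CPM in CW (adjusted p = 0.0858). Zm00001d012293 had 0.198, 0.164 and 0.72 CPM in LW and no count in CW, and was at least 5.49-fold higher in LW against a floor of 3 counts in each CW library (adjusted p = 0.0955). Neither passed in edgeR on all libraries, and both were low. Zm00001d010136 passed in DESeq2 (adjusted p = 0.000807), in limma (0.0353 and 0.022 with a pseudocount of 1 and 0.1) and in edgeR without CW replicate 3 (0.0365). Zm00001d012293 was also among the 4 ferredoxins that DESeq2 called higher.

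The remaining ferredoxins did not pass the test and had overlapping groups. Ferredoxin-1 on chromosome 4 (Zm00001d049732) had 102, 204 and 136 CPM in LW, against 143, 106 and 296 CPM in CW. Its log2 fold change was -0.30 ± 0.45, and its sign turned under other settings. The putative ferredoxin Zm00001d033469 had 11.9, 11 and 26 CPM in LW, against 18.1, 28.1 and 23.4 CPM in CW (log2 fold change -0.51 ± 0.40). The minor ferredoxin-3 genes Zm00001d003797 and Zm00001d025352 were under 5 CPM in every library, with log2 fold changes of 0.52 ± 0.87 and -0.13 ± 0.81, and the sign of each turned under at least 1 other setting.

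**Figure D5:**
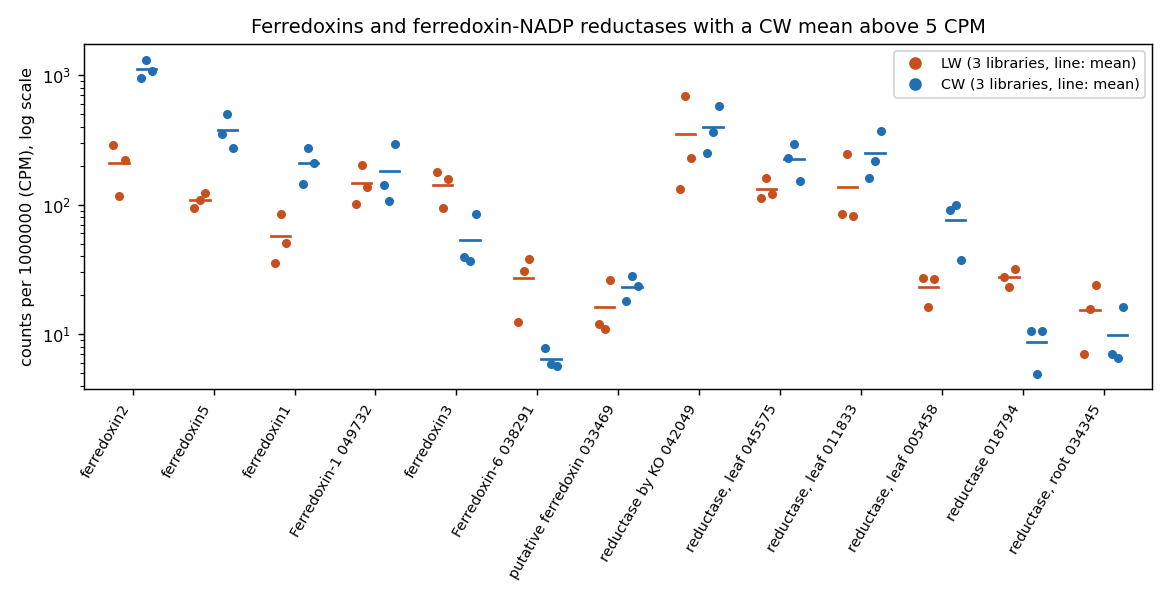
Points are the CPM of each library on a log axis and lines are group means, LW in orange left of CW in blue, for the ferredoxins and ferredoxin-NADP reductases with a CW mean above 5 CPM, with the last 6 digits of the gene identifier where names repeat. The LW points lie under the CW points for ferredoxin2, ferredoxin5, ferredoxin1 and the leaf reductase Zm00001d005458, and over them for ferredoxin3, Ferredoxin-6 and the reductase Zm00001d018794. The other genes shown have overlapping groups.

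Ferredoxin-NADP reductase uses reduced ferredoxin to make NADPH. Of its 8 tested genes edgeR called 0 lower and 1 higher, with 2 lower at an unadjusted p under 0.05 and 1 lower by DESeq2. Their summed FPKM was 427 ± 273 in LW and 483 ± 101 in CW (SD, n = 3 each). Zm00001d018794 was the one that rose, with 27.8, 23.3 and 32.0 CPM in LW, against 10.5, 4.95 and 10.5 CPM in CW. It was 3.21-fold higher in LW (log2 fold change 1.68 ± 0.36, adjusted p = 0.0456), and its level was low, at 9.27 ± 1.35 FPKM in LW and 2.29 ± 0.898 FPKM in CW (SD, n = 3 each).

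Among the leaf reductases, Zm00001d045575 had 113, 161 and 119.8 CPM in LW, against 230.3, 295 and 153 CPM in CW (log2 fold change -0.79 ± 0.31, adjusted p = 0.178). Zm00001d011833 had 84.8, 244 and 81.9 CPM in LW, against 161, 218 and 371 CPM in CW (log2 fold change -0.87 ± 0.53, adjusted p = 0.358). LW replicate 2 was the highest LW library in both genes, and the groups overlapped. Zm00001d005458 had 27.0, 16.1 and 26.8 CPM in LW, against 91.4, 99.6 and 37.2 CPM in CW. Its groups did not overlap, but it missed the threshold (log2 fold change -1.71 ± 0.42, adjusted p = 0.0633). Zm00001d023296 was the least abundant of those named here, at 0.593 ± 0.245 FPKM in LW and 1.52 ± 0.945 FPKM in CW (SD, n = 3 each), and did not pass.

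The gene with the most FPKM in this role was Zm00001d042049, described only as ferredoxin but annotated with the reductase activity. It had 133, 696 and 229 CPM in LW, against 250.5, 363 and 576 CPM in CW. LW replicate 2 was the highest of all 6 libraries and LW replicate 1 the lowest, and the log2 fold change of -0.17 ± 0.63 turned sign under other settings. The root isozyme, ferredoxin NADP reductase1 (Zm00001d034345), had 7.00, 15.5 and 23.9 CPM in LW, against 6.99, 6.54 and 16.1 CPM in CW (log2 fold change 0.65 ± 0.55, adjusted p = 0.519).

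Proton gradient regulation 5 (PGR5) is needed for cyclic electron flow around photosystem I. Its main gene, Zm00001d031850, had 67.2, 41.5 and 55.2 CPM in LW, against 228, 365 and 351 CPM in CW, and was 5.75-fold lower in LW (log2 fold change -2.52 ± 0.32, adjusted p = 0.0207). The minor gene, Zm00001d049883, had 5.04, 6.78 and 8.03 CPM in LW, against 24.0, 43.7 and 9.77 CPM in CW. Its groups did not overlap, but CW replicate 3 was close to LW, and it did not pass (log2 fold change -1.96 ± 0.54, adjusted p = 0.0781). Proton gradient regulation3 homolog (Zm00001d047307), named for a protein that in Arabidopsis acts on RNAs of the chloroplast, had 16.1, 24.8 and 14.7 CPM in LW, against 21.7, 33.5 and 33.5 CPM in CW (log2 fold change -0.68 ± 0.31, adjusted p = 0.237).

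The other members matched by name but stand outside the chain or are uncertain, and edgeR called none. Of the 12 tested among them, 4 were lower at an unadjusted p under 0.05, and DESeq2 called 4 lower. Nuclear loci with the names of plastid-encoded subunits were 4 in number, and reads of the chloroplast genes may be counted at them. The most abundant per length, named as cytochrome b6-f subunit 4 (Zm00001d018162), had 0.365, 1.8 and 1.5 CPM in LW, against 16.7, 4.31 and 2.15 CPM in CW. Of 11 other ferredoxin-related genes 7 were tested, and the highest per length was the 2Fe-2S ferredoxin-like gene Zm00001d013534, with 49.1, 49.1 and 53.7 CPM in LW, against 185, 221 and 72.6 CPM in CW (adjusted p = 0.0637). Elongated mesocotyl1 (Zm00001d011876), which makes the pigment of phytochrome, had 11.7, 8.86 and 10.4 CPM in LW, against 23.7, 45.4 and 21.4 CPM in CW (adjusted p = 0.0539). The plastocyanin-like gene Zm00001d049170 had 3.46, 0.854 and 0.772 CPM in LW, against 0.499, 3.39 and 0.343 CPM in CW, with overlapping groups.

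The CW libraries were not alike in these genes. CW replicate 3 was the lowest CW library in 46 of the 81 tested members (56.8%), beside 33% of all tested genes, and CW replicate 2 was the highest in 46, beside 31.5% of all tested genes. Without CW replicate 3 edgeR called 4.64% of all tested genes lower and 5.88% higher, beside 2.40% and 2.84% with all libraries. In that fit the oxygen-evolving complex had 7 genes lower in LW, photosystem II assembly 5 and proton gradient regulation 2. With all libraries these counts were 6, 3 and 1. Ferredoxin had 3 lower and 2 higher, against 3 and 1 with all libraries.

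Partner complexes were set beside these genes. Of the nuclear antenna genes 21 of 27 tested fell in LW and none rose, with a median log2 fold change of -2.60. Summed over genes, the FPKM of the members was 2.10, 2.64 and 2.59 times that of the antenna in LW, against 1.83, 1.56 and 1.90 times in CW, with no overlap of the groups. For the chloroplast NDH complex, which takes part in cyclic electron flow, 15 of 23 tested genes fell and none rose, with a median of -2.13. For the chloroplast ATP synthase 3 of 5 tested fell and 1 rose. The 1 that rose was Zm00001d043834, a nuclear locus named as the beta subunit (log2 fold change 2.88, adjusted p = 0.0494, edgeR). The other 4 tested had log2 fold changes below 0. Plastid-encoded photosystem and cytochrome b6f genes were lower in LW in all 17 tested by the sign of the log2 fold change, with a median of -3.16, but edgeR called 2, petL and petG, small subunits of cytochrome b6f. At an unadjusted p under 0.05 there were 11 lower of these 17. DESeq2 called 16 lower, counted over all 24 listed genes, those dropped by the edgeR filter included, so the counts do not share a base. Their summed FPKM was 159, 53.9 and 122 in LW, against 1664, 729.6 and 344 in CW, and because these RNAs carry few poly(A) tails their level depends on how RNA was selected.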

How the data were processed

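Leaf RNA was sequenced as paired ends in 3 LW and 3 CW libraries. Selection of poly(A) RNA is described per the labels' protocols, but a poly(A)- fraction is mentioned as well, and the step is not settled. FastQC 0.10.1, HISAT2 2.0, StringTie 1.3.4 and edgeR stand in the submitters' processing notes without roles. Genome build, annotation release and strand setting were not given in the sources used here. The authors deposited an FPKM value and an estimated count per gene and library. Between 28.6% and 31.4% of count values in the range 1 to 40 are divisible by 4, more than counts of whole reads would give, so the counts were taken as estimates, with no counting interval. A floor of 3 counts per library covers counting error only. The source name of CW replicate 2 carries another replicate number, and its title was followed.

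Counts were tested with edgeR 4.0.16 in R 4.3.3 (TMM factors, filterByExpr, glmQLFit and glmQLFTest, group as the only term, Benjamini-Hochberg over 24704 genes, called at an adjusted p under 0.05). CPM on TMM-scaled library sizes compare 1 gene between libraries, and deposited FPKM compare genes per length. CPM and FPKM errors are SDs over 3 libraries, and errors of log2 fold changes are SEs. Alternatives were scaling by library totals, DESeq2 1.42.0, no filter, limma 3.58.1 on log2(FPKM + 1) and log2(FPKM + 0.1), a replicate block, and leaving out each library.

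Members and lists were chosen with earlier results of these data known. Genes are named if called against the common direction, if they have the largest called change or the highest mean FPKM of their role, if they are carriers with a mean of at least 1 FPKM in either group, or if they are among the 5 with the highest mean FPKM. Other members are named because they share a protein name with these or complete a role, and were chosen after their values were seen. Roles come from names and annotation terms. Genes with close copies may share reads, and 5 members overlap another gene: Zm00001d002993, Zm00001d018162, Zm00001d018574, Zm00001d020645 and Zm00001d045620. No sequence was used here.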

Additional observations from a re-analysis of the deposited data

How the results depend on the processing

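The number of members called lower, 38 in all libraries, was 34 under total scaling, 53 with DESeq2, 37 without a filter, and 36 and 34 in limma with a pseudocount of 1 and 0.1. The number called higher, 2 in all libraries, was 5 with DESeq2, and 4 and 5 in limma with a pseudocount of 1 and 0.1. It was 2 under total scaling and without a filter. Over all 24704 tested genes, edgeR called 592 lower and 701 higher with all libraries, and 346 lower and 1425 higher under total scaling. Limma called 556 lower and 2417 higher with a pseudocount of 1, and 523 and 2274 with 0.1. DESeq2 called 2050 lower and 2551 higher of 26922 genes, and edgeR without a filter 565 and 692 of 30669. Leaving out 1 library gave 0 to 45 members lower and 0 to 3 higher, beside 0 to 1193 and 0 to 1512 of all tested genes. The replicate numbers do not pair the libraries (correlations of same-numbered deviations -0.04, 0 and -0.25). With a replicate block edgeR called 0 members lower and 0 higher, and 3 genes in all. In that fit 55 members were at an unadjusted p under 0.05, and the matching share of all tested genes is not given here. The median log2 fold change of the members, -1.79, was -1.42 under total scaling, where the median of all genes was 0.42 instead of 0.06, -1.25 and -1.32 in limma with a pseudocount of 1 and 0.1, and -1.88 to -1.51 on leaving out 1 library. The summed level, 3.66-fold lower in LW, was 3.34-fold lower when FPKM was rescaled to 1000000 per library and 3.50-fold to 3.79-fold lower on leaving out 1 library.

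Sign changes among the named genes were in genes that did not pass the test. Under total scaling the log2 fold change was 0.27 for Zm00001d025352, 0.23 for Zm00001d042049 and 0.07 for Zm00001d049732. In limma it was 0.09 and 0.06 for Zm00001d025352 and 0.13 and 0.13 for Zm00001d049732. On leaving out 1 library it ran from -0.27 to 1.12 for Zm00001d003797, from -0.77 to 0.34 for Zm00001d025352, from -1.10 to 0.25 for Zm00001d042049, from -0.75 to 2.01 for Zm00001d049170 and from -0.58 to 0.25 for Zm00001d049732. The cause of these changes was not tested.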
